A study of Homo sapiens with 12 samples.

Results

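Small noncoding RNAs that live in stable ribonucleoprotein particles (RNPs) were followed through an argonaute 2 RNA-immunoprecipitation (AGO-RIP) experiment. The set held 8 genes, namely RN7SK, RN7SL1, RN7SL2, RMRP, RPPH1, RNY1, RNY3 and VTRNA1-1. A row counted as a member where 1 of the comma-separated names in its gene column was 1 of these symbols. Each gene had 1 row among the 61782 rows of each table, and none of the 8 rows was joined with another gene. The genes were chosen by earlier results of these same data, so their levels and ratios are a description and carry no test. Of the 8 rows, 6 had a value above 0 in at least 1 group and 5 in every group.

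The cells were K562, a human erythroleukemia cell line, which the methods give as the K562-C/EBPα-ER derivative. They had been stably transduced with a lentivirus carrying miR-143 (pLV-miR-143) or with a control virus (pLV-control), and both populations were kept under puromycin. From each population RNA was precipitated with an antibody against AGO2, the argonaute protein that carries microRNAs in the silencing complex, or with nonspecific IgG. This gave 4 groups of 3 samples: control IgG, control AGO, miR-143 IgG and miR-143 AGO. The deposited tables hold 1 average per group in FPKM (mapped fragments scaled for transcript length and for the size of the library), so no spread between samples is known and no difference below has a replicate check. The RNA entering each precipitate is not among the values used here. Between miR-143 and control cells, a lower level in a precipitate therefore cannot be told apart from a lower amount in the cells. Read depth is not known. Rows above 0 numbered 8393 in control IgG, 12161 in control AGO, 11453 in miR-143 IgG and 12937 in miR-143 AGO. Of the 11 rows that hold erythroid marker genes, 10 to 11 were above 0 in each group, and of 7 marker genes of other cell types 0 to 2 were, the highest being EPCAM at 8.28 FPKM.

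These RNAs are made by RNA polymerase III and work in particles other than the silencing complex. The 7SK RNA holds the elongation factor P-TEFb in an inactive store together with HEXIM and LARP7 proteins. The 7SL RNA is the scaffold of the signal recognition particle, which directs ribosomes to the endoplasmic reticulum. RMRP and RPPH1 are the RNA cores of RNase MRP, which acts in ribosomal RNA maturation, and of RNase P, which trims the 5′ ends of transfer RNA precursors. The Y RNAs RNY1 and RNY3 bind the Ro60 and La proteins, and VTRNA1-1 belongs to the vault particle.

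In the set, the 7SL RNA is given by 2 genes whose near identity limits how reads can be assigned between them. The transcripts of RN7SL1 (299 nt) and RN7SL2 (300 nt) were identical at 98.3% of aligned columns. In the GENCODE 29 annotation of GRCh38, both lie on chromosome 14. RN7SL1 lies wholly in an exon of a noncoding gene on its own strand, AL139099.4, which had no row of this name, and in an intron of RPS29, which runs on the opposite strand. RN7SL2 lies in an intron of a long intergenic noncoding RNA gene on its own strand.

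RNY1 (113 nt) is shown because it is the shortest of the 8 RNAs that had a value. It lies at chr7:148987136-148987248 on the minus strand, and no other gene overlaps it. RNY3 (102 nt), also on chromosome 7 and free of overlap, matched it at 72.6% of aligned columns. Capitals mark the closing run of T in RNY1, which La binds.
RNY1: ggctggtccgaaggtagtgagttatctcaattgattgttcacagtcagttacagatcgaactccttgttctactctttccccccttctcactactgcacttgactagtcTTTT

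VTRNA1-1 (99 nt, chr5:140711275-140711373, plus strand) is the shortest of the 8. Capitals mark its closing run of T. RNY1, RNY3 and VTRNA1-1 end in TTTT, which also ends 3.14% of the 22907 annotated transcripts of up to 400 nt.
VTRNA1-1: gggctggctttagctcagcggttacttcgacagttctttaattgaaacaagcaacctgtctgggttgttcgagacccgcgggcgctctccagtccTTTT

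RN7SK (328 nt) lies at chr6:52995621-52995948 on the plus strand. Its first 120 bases are shown with the 3 GATC repeats in capitals, since this end of the RNA holds the hairpin that binds HEXIM. GATC stood in 5 of the 8 RNAs and in 51.5% of the same short transcripts, so its presence alone does not set them apart.
RN7SK: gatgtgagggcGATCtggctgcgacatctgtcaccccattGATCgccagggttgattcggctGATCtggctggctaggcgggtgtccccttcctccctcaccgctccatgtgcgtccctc

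RMRP (268 nt) lies at chr9:35657751-35658018 on the minus strand, 272 bases from CCDC107. RPPH1 (333 nt) lies at chr14:20343075-20343407 on the minus strand, 175 bases from PARP2 and inside an exon of a noncoding gene on the same strand. The mature miR-143-3p in RefSeq is given with its seed, bases 2 to 8, in capitals, because AGO2 in the miR-143 cells carries it.
miR-143-3p: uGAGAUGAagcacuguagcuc

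Sites complementary to the seed were searched on the transcript strand. The full site TCATCTC was found in 0 of the 8 RNAs and in 2.06% of the 22907 short transcripts. Its shorter core CATCTC, which lies inside the full site, was likewise found in 0 of the 8 and in 8.44% of short transcripts. These letters are thus missing from the annotated transcripts, which says nothing on binding.

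All 6 RNAs with values were far lower in the AGO2 precipitates than in the IgG precipitates of the same cells. RN7SK stood at 280876 FPKM in control IgG, 23862 in control AGO, 277835 in miR-143 IgG and 10609 in miR-143 AGO. It was 11.8-fold lower in AGO in control cells and 26.2-fold lower in miR-143 cells. In spite of this it remained the third most abundant row of the control AGO table and the fifth of the miR-143 AGO table.

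RN7SL1 stood at 258306 FPKM in control IgG, 11180 in control AGO, 216838 in miR-143 IgG and 6343 in miR-143 AGO. For RN7SL2 the values were 243374, 10496, 188084 and 5737 in the same order. AGO was 23.1-fold and 23.2-fold lower for RN7SL1 and RN7SL2 in control cells, and 34.2-fold and 32.8-fold lower in miR-143 cells. The level of RN7SL1 over that of RN7SL2 stayed between 1.06 and 1.15 in the 4 groups, and reads from the stretches both share cannot be assigned to either with certainty.

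RMRP stood at 50597 FPKM in control IgG, 3179 in control AGO, 36070 in miR-143 IgG and 1263 in miR-143 AGO. It was 15.9-fold lower in AGO in control cells and 28.6-fold lower in miR-143 cells. RPPH1, its relative by function and by shared proteins, was less abundant, at 16229, 979, 14123 and 445 FPKM. Its AGO levels were 16.6-fold and 31.7-fold lower. The level of RMRP over that of RPPH1 lay between 2.55 and 3.25 in the 4 groups, although the 2 sequences matched at 26.2% of aligned columns only.

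RNY1, the shortest RNA with a value among the 8, differed more between groups than the longer ones. It stood at 92640 FPKM in control IgG, 362 in control AGO and 9402 in miR-143 IgG, and it was listed at 0 in miR-143 AGO. The value in control AGO was 256-fold lower than in control IgG, the widest gap among the 6 RNAs. The 2 IgG precipitates also differed, by 9.85-fold, whereas the other 5 RNAs differed between them by 1.01-fold to 1.40-fold. RNY1 at 113 nt is close to the shortest transcript that had any value (below), and whether its spread comes from length was not tested.

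RNY3 and VTRNA1-1 were listed at 0 in all 4 groups. A listed 0 does not show that the RNA is absent, since transcripts that every cell uses, such as the P-TEFb kinase CDK9, were also listed at 0 in every group. No ratio was formed for these 2 genes.

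**Figure D1:**
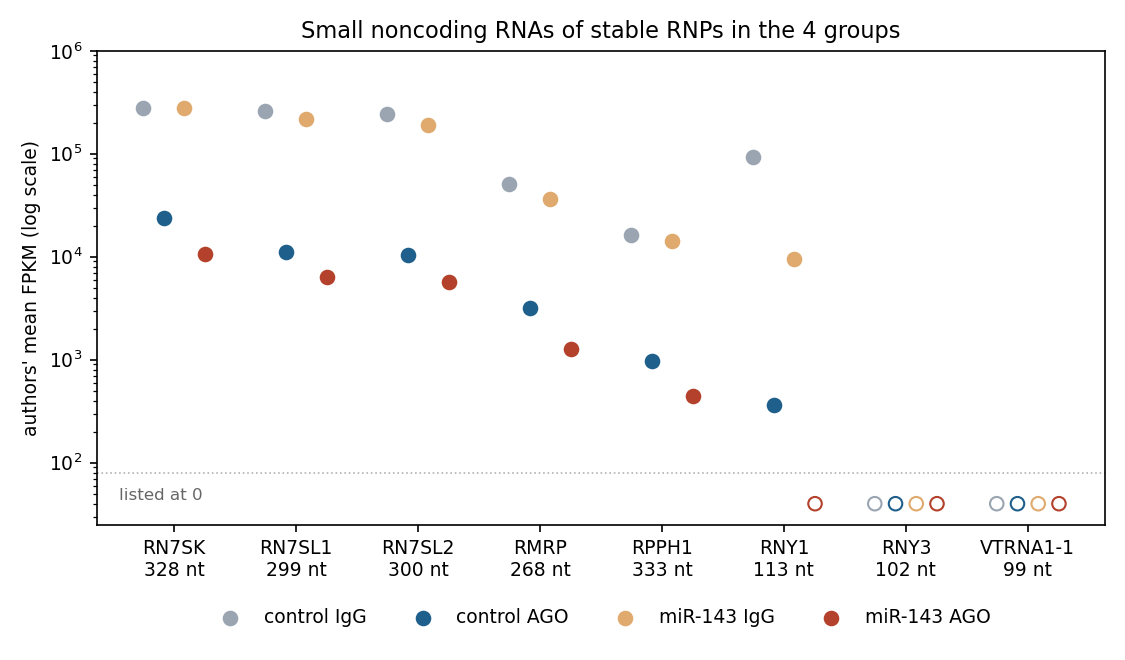
Authors' mean FPKM (log axis) of the 8 RNAs in the 4 groups, 1 point per group. Open circles mark values listed at 0. Both AGO points lie below both IgG points for RN7SK, RN7SL1, RN7SL2, RMRP and RPPH1, while RNY1 spans 362 to 92640 FPKM where it has a value.

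Ratios were next placed among all rows, as the log2 of (FPKM + 1) in AGO over (FPKM + 1) in IgG for rows with at least 1 FPKM in either group. In control cells 6 of the 6 RNAs with values were at least 10-fold lower in AGO, as were 4.98% of the 9919 rows compared. In miR-143 cells 5 RNAs with a value in both groups were at least 10-fold lower, RNY1 passed only through its listed 0 in AGO, and 3.67% of the 10643 rows were. These ratios are what the genes were chosen on, so nothing is read from the counts. At 2-fold, 36.2% of rows were lower and 34.5% higher in AGO in control cells, and 33.5% lower and 26.6% higher in miR-143 cells, while none of the 6 RNAs was higher.

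On the log2 scale the ratios in control cells were −3.56 for RN7SK, −3.99 for RMRP, −4.05 for RPPH1, −4.53 for RN7SL1, −4.54 for RN7SL2 and −7.996 for RNY1. RN7SK was thus the least reduced and had 3.65% of all rows at or below it. RNY1 was the most reduced and had 7 rows below it. In miR-143 cells the 5 RNAs with values in both groups lay closer together, from −4.71 for RN7SK to −5.10 for RN7SL1. Their median was −4.99 there, against −0.22 over all rows, and the median of the 6 in control cells was −4.29, against −0.19.

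**Figure D2:**
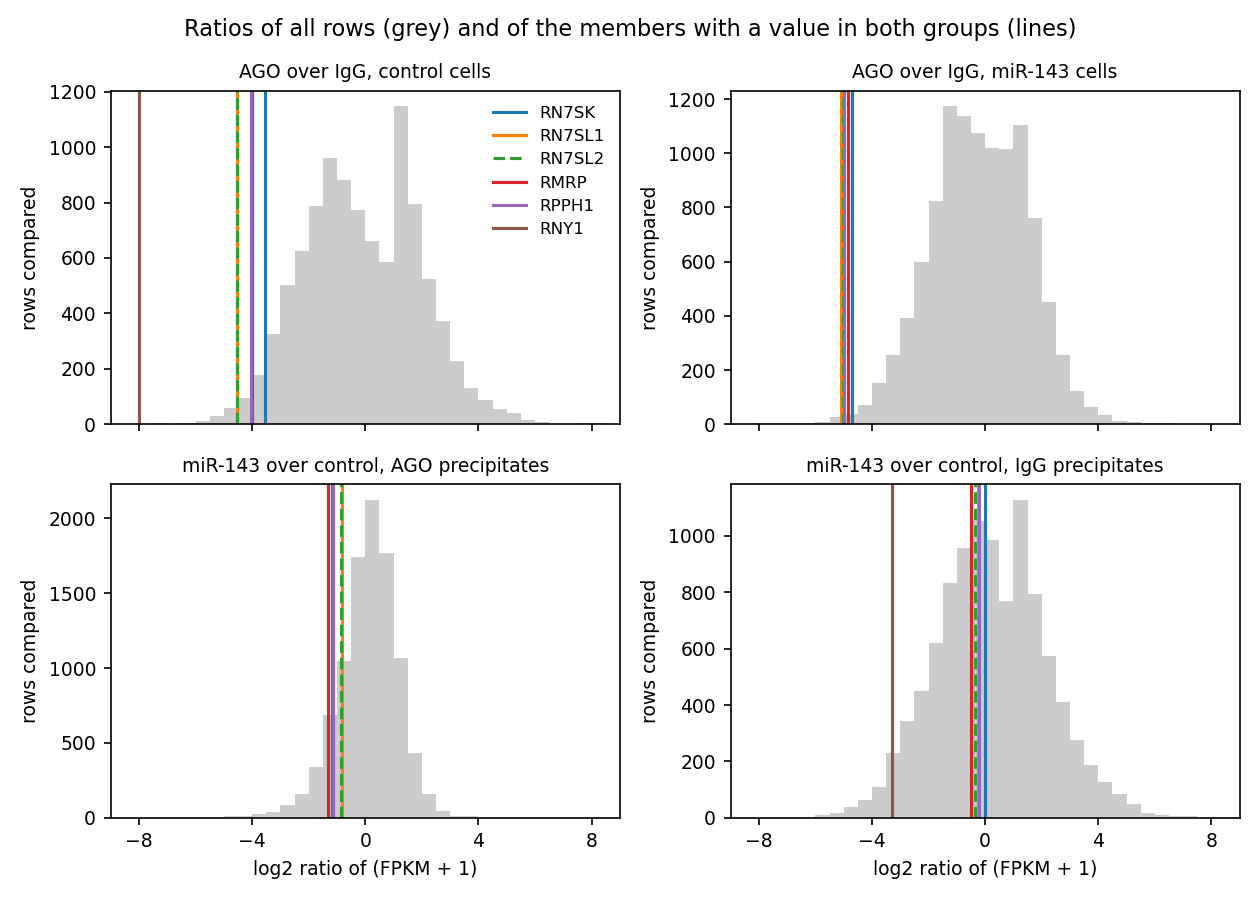
Histograms of the log2 ratio of (FPKM + 1) over all rows compared (grey, rows listed at 0 in 1 group included), with a line for each RNA that had a value in both groups. In both upper panels the lines lie in the far left tail, from −3.56 downward, and in the lower panels they lie left of or near the centre.

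These folds depend on what the tables are scaled to. FPKM summed over all rows was 2831020 in control IgG, 368552 in control AGO, 2595870 in miR-143 IgG and 411417 in miR-143 AGO, so AGO sums were 7.68-fold and 6.31-fold lower. FPKM is a value per length, and the 8 genes with RNU4-1, RNU4-2, MT-RNR1 and MT-RNR2 carried most of the sum in both IgG groups, whereas protein-coding rows held 42.03% of it in control AGO and 37.2% in miR-143 AGO. As a share of summed FPKM, the 8 genes made up 33.3% of control IgG, 13.6% of control AGO, 28.6% of miR-143 IgG and 5.93% of miR-143 AGO. The share in AGO was therefore 2.45-fold lower for the control virus and 4.82-fold lower for miR-143.

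RN7SK alone held 9.92% of summed FPKM in control IgG and 6.47% in control AGO, a 1.53-fold difference. In miR-143 cells its share was 10.7% in IgG and 2.58% in AGO, 4.15-fold lower. The share of RN7SL1 was 3.01-fold and 5.42-fold lower in AGO, and that of RMRP 2.07-fold and 4.53-fold. RNY1 was lower by 33.3-fold by share in control cells. The direction was the same for all 6 RNAs on this scale, and the 10-fold threshold was passed by RNY1 alone.

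When FPKM was multiplied by transcript length, which approximates the share of fragments, the 8 genes took 18.0% of control IgG, 3.09% of control AGO, 17.2% of miR-143 IgG and 1.63% of miR-143 AGO. The share in AGO was 5.84-fold lower in control cells and 10.6-fold lower in miR-143 cells. The IgG precipitates of both populations thus gave nearly the same share on this scale. Protein-coding rows took 41.3% and 43.8% of the length-weighted sum in control IgG and miR-143 IgG, and 88.6% and 90.4% in control AGO and miR-143 AGO.

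The row of the MIR143 gene itself, introduced by the virus, bears on the AGO shares of miR-143 cells. MIR143 was listed at 0 in both control groups and held 1.73% of summed FPKM in miR-143 IgG and 28.8% in miR-143 AGO. Weighted by length it held 2.69% of miR-143 AGO. The shares given above for RN7SK and the other RNAs in miR-143 AGO are taken of a sum that includes this row.

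**Figure D3:**
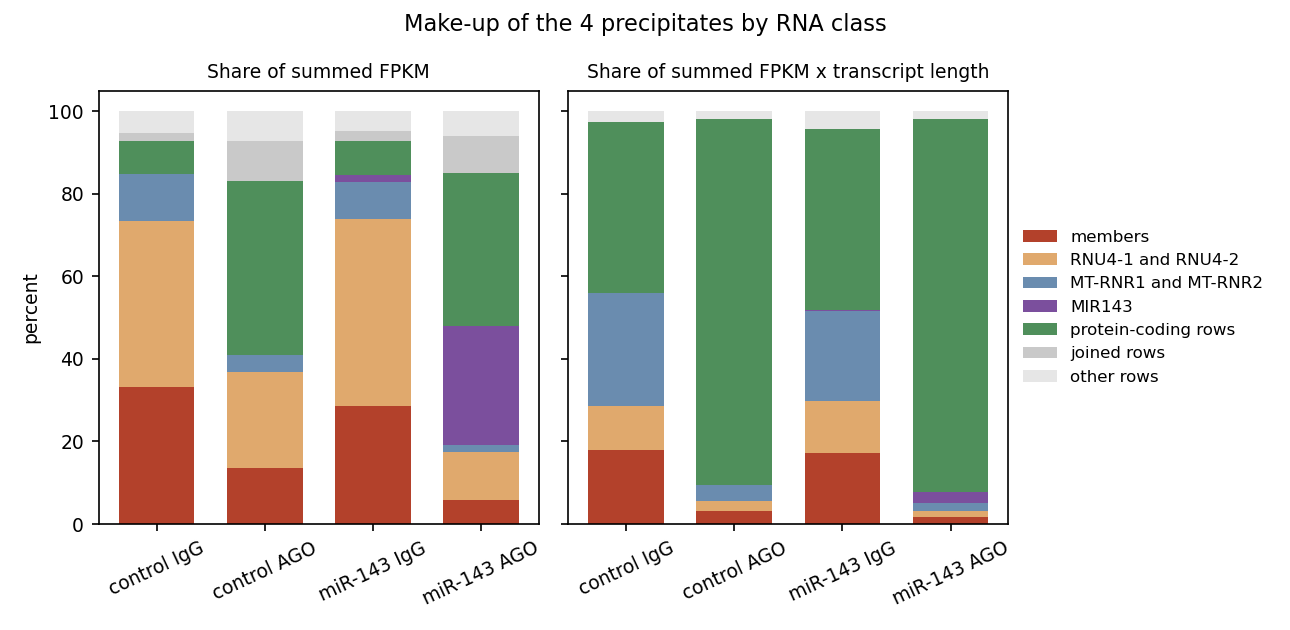
Stacked bars of the share (percent) of summed FPKM (left) and of summed FPKM times transcript length (right, rows with a GENCODE length) by RNA class in the 4 groups. The 8 genes (dark red) fall from 33.3% to 13.6% in control cells and from 28.6% to 5.93% in miR-143 cells on the left, and MIR143 (purple) reaches 28.8% in miR-143 AGO.

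Of the other abundant noncoding RNAs looked at, the U4 and mitochondrial ribosomal RNAs differed by similar folds, and U11 did so in control cells only. These RNAs were picked by hand, and RNU4-1, MT-RNR1 and MT-RNR2 are also the nearest rows found below. Not every small RNA ran this way. SNORA71A was listed at 0 in both IgG groups and stood at 1215 FPKM in control AGO and 909 in miR-143 AGO. The spliceosomal U4 genes RNU4-1 and RNU4-2 were 12.1-fold and 14.3-fold lower in AGO in control cells and 29.7-fold and 22.6-fold lower in miR-143 cells. The mitochondrial ribosomal RNAs MT-RNR1 and MT-RNR2 were 25.6-fold and 18.4-fold lower in control cells and 40.1-fold and 27.2-fold lower in miR-143 cells. The folds of RN7SL1, RN7SL2, RMRP and RPPH1 fell within these ranges in both populations, and that of RN7SK did in miR-143 cells and lay just below, at 11.8-fold, in control cells. RNU11, the U11 RNA of the minor spliceosome, was 28.2-fold lower in AGO in control cells and 3.80-fold lower in miR-143 cells. MIR143 was higher in AGO than in IgG of miR-143 cells, as given above. By contrast GAPDH mRNA differed by 1.21-fold and 1.12-fold, and RPS27 mRNA was 2.38-fold and 3.70-fold higher in AGO.

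For each RNA, the row outside the set with the nearest pattern over the 4 groups was looked for. Nearness was the Euclidean distance between centred log2 values. Candidates were 666 rows with 1 gene name and a mean of at least 50 FPKM, the genes of the set left out. The RNAs of the set were thus not compared with each other here. RN7SK lay nearest to RNU4-1, at a distance of 0.14. RN7SL1 and RN7SL2 lay nearest to MT-RNR1, at 0.24 and 0.23, and RMRP and RPPH1 to MT-RNR2, at 0.16 and 0.28. RNY1 had no close match. Its nearest row was RNU5E-1, a 120-nt U5 RNA gene, at 2.97, with 10029 FPKM in control IgG, 429 in control AGO, 12356 in miR-143 IgG and a listed 0 in miR-143 AGO.

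Cells with miR-143 and control cells were compared within each kind of precipitate. In AGO, RN7SK was 2.25-fold lower in miR-143 cells than in control cells, RMRP 2.52-fold, RPPH1 2.20-fold, RN7SL2 1.83-fold and RN7SL1 1.76-fold. With RNY1, listed at 0 in miR-143 AGO, 4 of the 6 RNAs were at least 2-fold lower, and none was higher. Over all 9798 rows 14.1% were at least 2-fold lower and 17.7% higher. The median log2 ratio of the 5 RNAs with values in both groups was −1.14, against 0.17 over all rows.

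In IgG the same RNAs differed by less than 2-fold between the cell populations, except RNY1. The log2 ratios of miR-143 over control were −0.02 for RN7SK, −0.20 for RPPH1, −0.25 for RN7SL1, −0.37 for RN7SL2, −0.49 for RMRP and −3.30 for RNY1. The first 3 are so close to 0 that their sign turned when the groups were scaled to the same median, to 0.30, 0.11 and 0.06. At least 2-fold, 1 of the 6 RNAs was lower and 0 were higher, beside 26.8% and 36.2% of 10172 rows. RN7SK, RMRP and RPPH1, at least 2-fold lower in AGO of miR-143 cells, were 1.01-fold, 1.40-fold and 1.15-fold lower in IgG, and without replicate values the difference between the precipitates was not tested.

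No small RNA below a certain length had a value, and most longer ones had none either. Among small noncoding RNA rows of 1 name and 1 annotated transcript, 0 of 1728 of up to 100 nt were above 0 in any group. Of those from 101 to 150 nt, 15 of 1515 had a value, of those from 151 to 250 nt 11 of 225, and of those from 251 to 400 nt 33 of 892. The shortest row with a value was MIR143 at 106 nt, followed by RNY1 at 113 nt. All 2036 rows of single-transcript genes no longer than RNY3 (102 nt) were listed at 0, so RNY3 and VTRNA1-1 could not be told apart from other RNAs of their size.

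The relatives of the 8 genes followed the same limit. RNY4, VTRNA1-2, VTRNA1-3 and VTRNA3-1P were listed at 0 in all groups. RN7SL3 and RNY5 had no row of these names. VTRNA2-1 (128 nt), a vault-related RNA known to bind the kinase PKR, had 1191 FPKM in miR-143 IgG and was listed at 0 in the other 3 groups. BCYRN1 (200 nt), a polymerase III RNA that shares its origin with 7SL, stood at 23.0 FPKM in control IgG, 2.99 in control AGO, 34.3 in miR-143 IgG and 3.35 in miR-143 AGO. IgG lay above AGO in both populations, as for the longer members, at a far lower level.

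**Figure D4:**
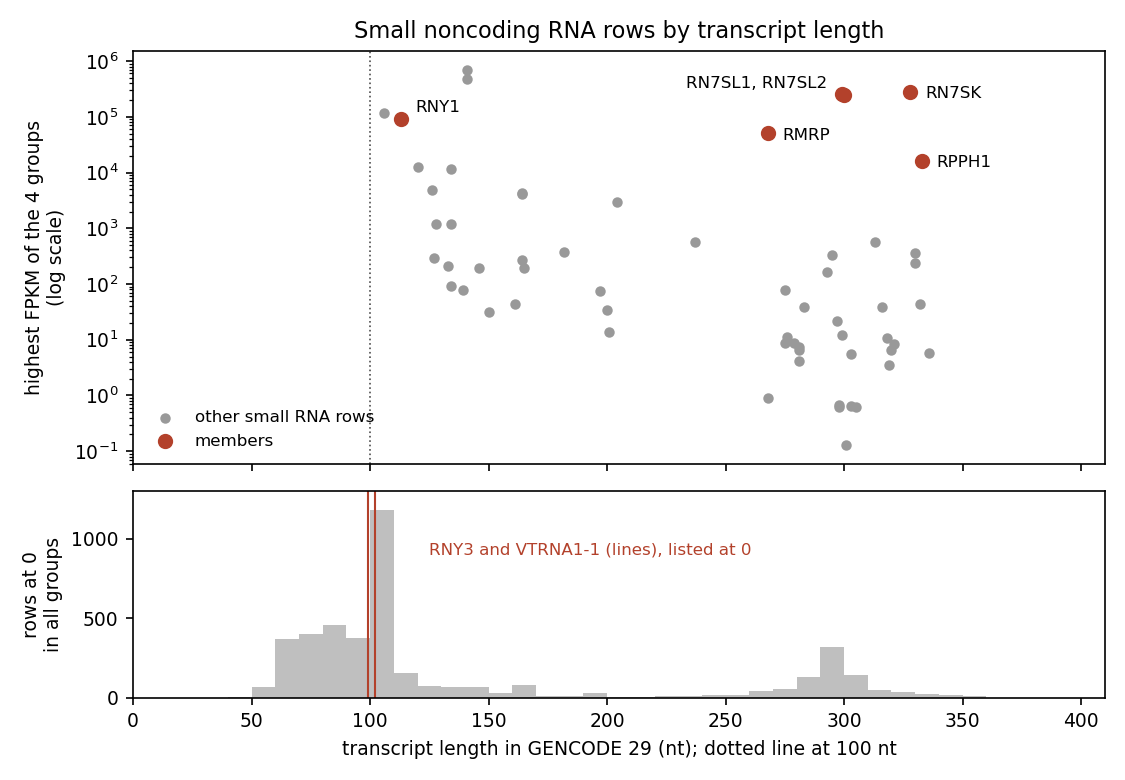
Upper panel, highest FPKM of the 4 groups (log axis) against transcript length in nt for small noncoding RNA rows above 0, with members in red and RMRP added from its longest entry. Lower panel, number of rows listed at 0 in all groups per 10 nt, with lines at the lengths of RNY3 and VTRNA1-1. No point lies left of the dotted line at 100 nt, and the first is MIR143 at 106 nt.

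The 7SK, 7SL and Y RNAs have many near copies in the genome, and reads shared with a copy cannot be assigned with certainty. Of 286 rows named as RN7SK copies 12 had a value in any group, and together they reached 0.12% to 0.38% of the level of RN7SK. The highest, RN7SKP255, matched RN7SK at 98.3% of 239 aligned columns. It stood at 414 FPKM in control IgG, 24.5 in control AGO, 562.3 in miR-143 IgG and 27.8 in miR-143 AGO, that is 16.9-fold and 20.2-fold lower in AGO. Both IgG values thus lay above both AGO values, as for RN7SK, but neither AGO nor IgG was lower in miR-143 cells.

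Of 675 numbered 7SL pseudogenes 15 had a value, 3 of them in control IgG, 7 in control AGO, 4 in miR-143 IgG and 6 in miR-143 AGO. Most of the 15 had a value in an AGO group only, at up to 11.2 FPKM (RN7SL573P in miR-143 AGO). The highest, RN7SL4P, stood at 331 FPKM in control IgG, 7.73 in control AGO, 208 in miR-143 IgG and 3.85 in miR-143 AGO. A further 2 of 270 rows of the unnumbered Metazoa_SRP family had a value, and 1 of them reached 4617 FPKM in control IgG and 191 in control AGO. No copy of a Y RNA had a value, in 52 pseudogene rows and 832 Y_RNA rows, and none of 3 copies of RMRP and RPPH1 did.

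Unlike the RNAs, the mRNAs of the proteins that build these particles went both ways in AGO over IgG. As reported, more were lower than higher, and their medians lay below those of all rows. A list of 76 genes was used, for the 7SK particle, the signal recognition particle, RNase P and MRP, the Ro and La proteins, the vault and RNA polymerase III, of which 67 had a row of their own. In control cells 55 could be compared, and 13 were at least 2-fold higher and 20 lower in AGO, beside 34.5% and 36.2% of all rows. The median log2 ratio of the 55 was −0.47. Of the 13, HNRNPR, SRPRB, RPP30, RPP40, RO60, BRF1, BRF2 and SNAPC4 were listed at 0 in control IgG. Their ratios rest on that 0, and only the others of the 13 had a value in both groups. Of the 20, POP1 and POLR3G were listed at 0 in control AGO. In miR-143 cells 9 were higher and 29 lower of 61, beside 26.6% and 33.5% of all rows, with a median of −0.86. Over all rows the medians were −0.19 and −0.22. Between the cell populations 11 were higher and 5 lower of 55 in AGO, beside 17.7% and 14.1% of all rows. In IgG 24 were higher and 7 lower of 60, beside 36.2% and 26.8%. Of the 24, LARP7, HNRNPR, SRP9, SRPRB, RPP30, RPP40, RO60, SSB, POLR3F, BRF1 and BDP1 were listed at 0 in control IgG. Of the 7, HEXIM2 was listed at 0 in miR-143 IgG. Fewer rows were above 0 in control IgG (8393) than in miR-143 IgG (11453), and whether this bears on the IgG counts was not tested. The direction of the counts of AGO over IgG depends on scaling. When groups were brought to the same sum of FPKM times length, 26 were higher and 11 lower in control cells, and 22 higher and 13 lower in miR-143 cells.

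Among 7SK partners, CCNT2, a cyclin subunit of P-TEFb, stood at 1.32 FPKM in control IgG, 8.99 in control AGO, 1.99 in miR-143 IgG and 11.5 in miR-143 AGO, so that both AGO values lay above both IgG values. HNRNPA2B1, an hnRNP protein that binds 7SK released from P-TEFb, ran the other way at 13.0, 1.15, 17.0 and 2.74 FPKM. In the list of 7SK partners 2 genes were at least 2-fold higher and 3 lower of 7 compared in control cells, and 1 higher and 5 lower of 8 in miR-143 cells. Over all rows the shares higher and lower were 34.5% and 36.2% in control cells, and 26.6% and 33.5% in miR-143 cells.

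Of the signal recognition particle, SRP72 stood at 27.9 FPKM in control IgG, 2.52 in control AGO, 26.9 in miR-143 IgG and 4.60 in miR-143 AGO. SRPRB, a subunit of its receptor, was listed at 0 in control IgG and stood at 5.85, 13.3 and 4.45 FPKM in the other groups. The median log2 ratio of this list over 5 genes in control cells was 0.74, and over 6 genes in miR-143 cells it was −1.86. Between the cell populations, miR-143 over control, its median over 6 genes was −0.12 in AGO and 2.38 in IgG. Over all rows these medians were 0.17 in AGO and 0.17 in IgG. By its median, the list thus differed more between populations in IgG than in AGO. Its single ratios in IgG ran from −0.05 to 4.13, and SRP9 and SRPRB were listed at 0 in control IgG. Of all rows, 8393 were above 0 in control IgG and 11453 in miR-143 IgG. For RNase P and MRP the medians were close to 0, at −0.03 and −0.08 over 10 and 9 genes. Their subunit RPP25 stood at 2.60, 4.92, 2.50 and 6.89 FPKM, and RPP38 at 0.70, 1.28, 15.6 and 1.34.

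In the Ro and La list 2 genes, YBX1 and NCL, were at least 10-fold lower in AGO in control cells, and 1, YBX1, was in miR-143 cells. YBX1, an RNA-binding protein that also binds Y RNA particles, stood at 92.2 FPKM in control IgG, 7.89 in control AGO, 86.9 in miR-143 IgG and 5.81 in miR-143 AGO. NCL, which encodes nucleolin, stood at 55.0, 4.58, 35.2 and 6.37 FPKM, and PUF60, a splicing factor that interacts with Ro60, went from 27.5 to 106 and from 80.2 to 132. NSUN2, the methyltransferase that modifies vault RNA, was the only vault partner compared in control cells, at 5.35 FPKM in control IgG and 4.32 in control AGO, and stood at 11.3 in miR-143 IgG and 4.63 in miR-143 AGO.

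Of the polymerase III machinery, TBP stood at 23.2 FPKM in control IgG, 0.75 in control AGO, 26.1 in miR-143 IgG and 4.80 in miR-143 AGO. POLR3G, a subunit of the polymerase, stood at 11.4, 0, 14.9 and 1.33, and POLR2L, a subunit shared by all 3 nuclear polymerases, at 98.6, 10.4, 67.6 and 20.0. BRF2, the initiation factor for genes with an upstream promoter such as RN7SK, was listed at 0 in control IgG and stood at 4.64, 0.79 and 5.46 FPKM in the other groups. Of 26 and 29 genes of this list, 5 and 6 were at least 2-fold higher and 10 and 13 lower in AGO in control and miR-143 cells, where 34.5% and 26.6% of all rows were higher and 36.2% and 33.5% lower.

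**Figure D5:**
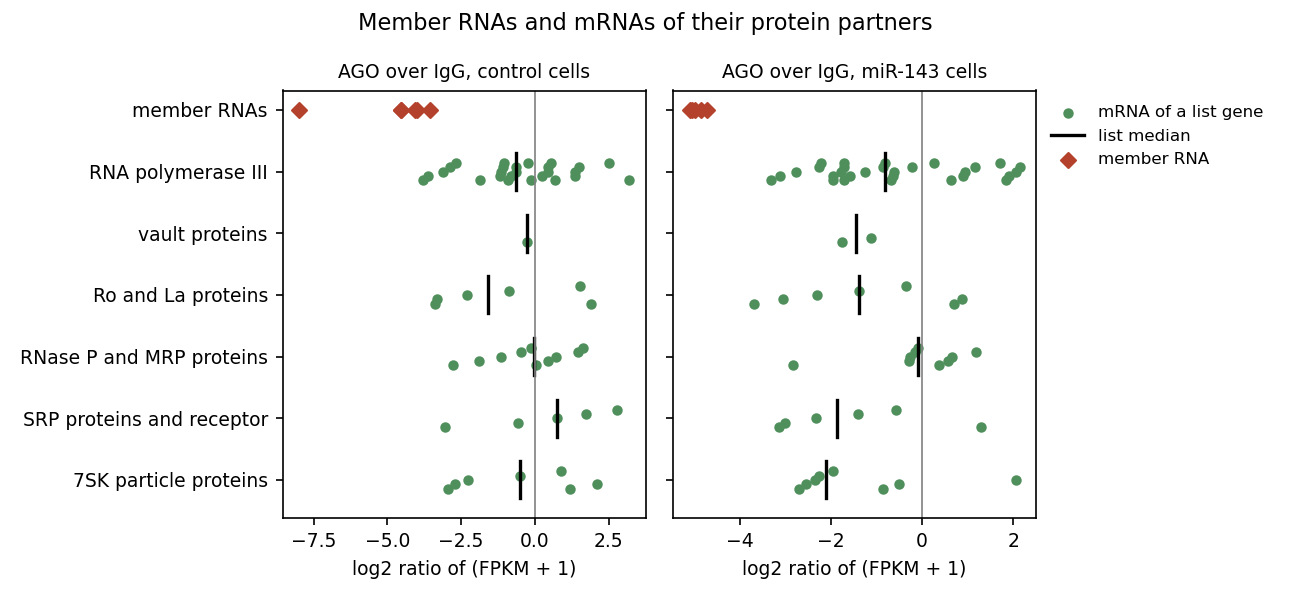
Log2 ratio of (FPKM + 1) in AGO over IgG for each mRNA of the partner lists (green points, black bar at the list median) and for the RNAs with a value in both groups (red diamonds), in control cells (left) and miR-143 cells (right). Partner mRNAs listed at 0 in a group are included. The diamonds lie between −3.56 and −7.996 on the left and near −5 on the right, while the mRNAs lie on both sides of 0.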

How the data were processed

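RNA was precipitated with an AGO2 antibody or IgG (Imprint RNA Immunoprecipitation Kit) in 3 independent experiments per group. The labels give removal of ribosomal RNA, random-primed cDNA, 12 cycles of PCR and paired-end sequencing, whereas the methods name a TruSeq RNA kit. The authors aligned reads with TopHat and computed FPKM with Cufflinks on hg38, in versions not given in the sources used here. The deposited FPKM are 1 authors' mean per group, so no test, standard deviation or interval could be computed, and depth is unknown.

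From these values, log2 ratios were formed with a pseudocount of 1 FPKM, over rows with at least 1 FPKM in either group, and plain folds without one. Thresholds were 2-fold and 10-fold, the latter as used by the study. Transcript lengths, positions and sequences came from GENCODE 29 by symbol, and the miR-143-3p sequence from RefSeq. FPKM times length is an approximation: if FPKM were counted over the annotated length alone it would sum to 100% of fragments, and it came to 151%, 50.4%, 133% and 46.6% in control IgG, control AGO, miR-143 IgG and miR-143 AGO. Rows with a length held 85.6% to 95.9% of summed FPKM. The 8 genes and the partner lists were chosen with earlier results of these data known. Partner genes were named where they differed at least 10-fold in AGO over IgG in either population. Those of the highest and lowest mean ratio of their list were named too, among rows of at least 1 FPKM in both AGO groups. A gene left out by that limit, such as POLR2K, could lie lower than the one named. Genes whose ratio rests on a listed 0 were named in addition. Computations used python 3.11.15, numpy 2.4.6, pandas 2.3.3, biopython 1.88 and matplotlib 3.10.9, and the calculations were tested on simulated data. Other pseudocounts, filters and scalings were tried as alternatives. Some transcript sequences are not reported here.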

Additional observations from a re-analysis of the deposited data

How the results depend on the processing

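All 6 RNAs with values stayed lower in AGO than in IgG, in both populations, under every pseudocount, filter and scaling run. The size did not. With rows of ribosomal RNA and MIR143 left out and the groups rescaled to the same sum of FPKM, 1 RNA (RNY1) was at least 10-fold lower in control cells, as was 1 in miR-143 cells, RN7SK reached a log2 ratio of −0.73 in control cells, and 2 RNAs were at least 2-fold lower in AGO of miR-143 over control cells. With the same sum of FPKM times length, a scaling chosen after seeing the data, 1 RNA was at least 10-fold lower in control cells. The share of the 8 genes on that scale was 18.0%, 3.09%, 17.2% and 1.63% in control IgG, control AGO, miR-143 IgG and miR-143 AGO. Partner mRNAs at least 2-fold higher and lower in AGO became 37 and 4 in control cells and 40 and 2 in miR-143 cells without those rows, and 26 and 11, and 22 and 13, by FPKM times length. In miR-143 cells 14 were higher with the same upper quartile and 14 with the same sum over protein-coding rows. Between populations in AGO, 6 were higher with the same median and 3 lower without those rows. Counted at 1 FPKM or more, 9 copy rows had a value in control AGO, against 14 above 0. The scalings shift all rows together: leaving out those rows raised the median log2 AGO over IgG ratio of all rows by 2.22 and 2.33, FPKM times length by 1.32 and 1.21, and the same median by 0.60 and 0.18. Of all rows at least 2-fold apart, the share that was higher in AGO was 48.8% as reported in control cells, 61.2% with the same median, 75.7% by FPKM times length and 89.4% without those rows, and 44.2%, 49.6%, 78.0% and 92.5% in miR-143 cells. With the same upper quartile and the same coding sum it was 57.1% and 57.8% in control cells and 55.7% and 56.8% in miR-143 cells. Between populations in AGO the share that was higher in miR-143 cells was 55.8% as reported and 70.0% without those rows. No paired analysis was possible because each table reports a single average for its group and its columns name no replicate, and leaving out single replicates was not run for the same reason.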
